A study of Homo sapiens with 6 samples.

Results

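Interferon-stimulated genes are the genes that cells switch on when interferon reaches them. A panel of 51 such genes was taken by symbol from the count table of A2780 cells and A2780 CDK12 KO cells, which lists 60483 genes. Every panel gene had a row, matched by its Ensembl identifier, with DDX58 found under its current symbol RIGI. Of the 51 genes, 40 had enough counts to be tested among 16198 tested genes, and 11 did not. The genes were listed by their known function, with earlier results of these data known.

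RNA-seq was performed on 3 libraries of A2780 cells (WT genotype), an ovarian carcinoma cell line, and 3 libraries of the A2780 CDK12 KO clone (KO genotype). The KO cells were obtained by transfecting A2780 with a CRISPR/Cas9 plasmid against exon 1 of CDK12, a kinase of RNA polymerase II. Both groups were grown in the same RPMI medium, and no interferon or other agent is given for either of them. All KO libraries come from a single clone, in which the study described a duplicated chromosome set, so the loss of CDK12, the duplication and other features of this clone cannot be told apart. Nothing in the labels says whether the 3 libraries of a group came from separate cultures, so p-values measure only the spread between these libraries, which may be technical.

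Type I and type III interferons act through receptors that switch on the kinases JAK1 and TYK2, which phosphorylate STAT proteins. The complex ISGF3, which includes STAT2 and IRF9, then binds the interferon-stimulated response element (ISRE) in the promoters of its target genes. Type II interferon acts mainly through another promoter element, the gamma-activated site (GAS). Many of the induced proteins restrict viruses, by sensing or degrading viral RNA, blocking its translation or holding particles at the membrane, and many are also expressed at a basal level in tumor cells that have not been given interferon.

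The ISRE is the sequence that these genes are known to share, so it is shown for some panel genes that changed in KO cells and whose promoters hold it. Promoters of 300 bases (250 before to 50 after the start) were read from RefSeq on GRCh38.p14 for 39 of the 51 genes. The core of the ISRE, GAAA, any 2 bases and GAAA, was searched for on both strands, and a match is only a description of the letters. Below, sequences run 5′ to 3′ on the strand of the gene, and capitals mark the core, which reads TTTC, any 2 bases and TTTC where it lies on the other strand. The first 4 belong to genes that were down-regulated in KO cells, with the first core starting 130, 116, 40 and 69 bases before the start.
BST2: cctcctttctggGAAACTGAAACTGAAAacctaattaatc
IFIT1: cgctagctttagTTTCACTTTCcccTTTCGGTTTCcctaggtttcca
IFITM1: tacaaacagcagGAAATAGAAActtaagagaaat
ISG20: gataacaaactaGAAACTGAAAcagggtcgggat

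They lie at chr19:17405733-17405772 (minus strand) for BST2, chr10:89392495-89392541 (plus strand) for IFIT1, chr11:313988-314021 (plus strand) for IFITM1 and chr15:88638935-88638968 (plus strand) for ISG20. The next 3 belong to genes that were up-regulated in KO cells, with the first core starting 58, 127 and 159 bases before the start.
LGALS3BP: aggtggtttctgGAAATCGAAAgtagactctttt
GBP1: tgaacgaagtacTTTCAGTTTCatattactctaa
IFIH1: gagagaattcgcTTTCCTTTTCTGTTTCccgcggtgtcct

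These lie on the minus strand at chr17:78979960-78979993 for LGALS3BP, chr1:89065314-89065347 for GBP1 and chr2:162318816-162318855 for IFIH1. In BST2 and IFIH1 a pair of overlapping cores forms one longer run, while IFIT1 holds its pair 3 bases apart. The letters thus occurred in promoters of genes that changed in opposite directions. Of the 39 panel genes with a promoter, 23 (59.0%) held the core, against 3.57% of all 35116 promoters and 4.38% of all 27305 genes in the table. By outcome, the core was found in 4 of 4 down-regulated genes, 6 of 8 up-regulated genes, 10 of 21 tested genes that did not pass both thresholds and 3 of 6 genes too low to test. CMPK2 and OAS1 were among the up-regulated genes, and their windows did not hold these letters. The GAS core, TTC, any 3 bases and GAA, read alike on both strands, was present in 9 of the 39 genes, against 9.38% of all genes and 7.66% of all promoters in the table, and 2 of these 9 were down-regulated, 3 up-regulated and 4 tested without passing both thresholds. The remaining 12 genes had no promoter to search: STING1, OASL, CGAS, MX2, IRF7, GBP2, DHX58, IFITM2, IFIT2, IRF3, OAS2 and USP18.

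Total counts ranged from 11098400 in WT replicate 3 to 30899045, and 3 counts corresponded to 0.0971 to 0.270 CPM (counts relative to the total of the library), a floor that covers counting error only. CDK12 RNA, which the editing changes in sequence rather than removes, was 115 ± 11.1 CPM (WT) and 98.0 ± 4.64 CPM (KO, SD, n = 3 each). It was slightly lower in KO cells (log2 fold change -0.23, adjusted p = 8.2e-04, edgeR's quasi-likelihood test), and the groups did not overlap. Among epithelial and ovarian carcinoma markers, KRT18 and KRT8 were higher in KO cells (log2 fold changes of 0.78 and 0.56), EPCAM was lower (-0.53), and all 3 passed the adjusted p of edgeR's quasi-likelihood test, whereas CDH1, KRT7, PAX8, WT1 and MUC16 had at most 6 counts in any library. Leukocyte markers summed to 0.367 to 0.912 CPM in WT and 0.730 to 1.30 CPM in KO libraries, with CD2 and MS4A1 at 0 and PTPRC at no more than 2 counts. Endothelial markers summed to 0.0730 to 0.30 CPM in WT and 0.674 to 0.892 CPM in KO libraries. VWF and CD14 led these sums and were up-regulated in KO cells by 2.00 and 1.02 on the log2 scale (adjusted p = 1.04e-04 and 0.0156, same test), at no more than 26 counts in any library. Both had enough counts for the test only through the KO libraries, which favours such a rise. The part of these markers in the results below was not tested.

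The panel held genes that rose and genes that fell, as did the whole set of tested genes. Values are CPM on TMM-scaled totals, and calls come from edgeR's quasi-likelihood test (two-sided, Benjamini-Hochberg over all tested genes). Genes with an adjusted p under 0.05 were named up-regulated where the log2 fold change exceeded 1, and down-regulated where it was under -1. Among the 40 tested panel genes, 10 (25%) were up-regulated in KO cells, against 8.3% of all tested genes, and 5 (12.5%) were down-regulated, against 7.73% of all tested genes. At the adjusted p alone, 18 (45%) were higher against 31.9% of all genes and 15 (37.5%) were lower against 32%. Every KO library lay above every WT library for 19 panel genes (47.5%, against 32.8% of all genes) and below for 14 (35%, against 33.5%). By this measure and at the adjusted p alone, the share of lower genes was close to that of all genes. With opposite changes of this size, the panel had a median log2 fold change of 0.07, while the median over all tested genes was 0.00044. The median size of the change without its sign was 0.506 for the panel and 0.317 for all genes. Summed over the panel, RNA amounted to 2598 ± 31.4 CPM in WT and 2644 ± 47.8 CPM in KO cells (SD, n = 3, exact permutation test, two-sided, p = 0.2). In RNA from whole cultures, fewer cells expressing a gene and less RNA per cell cannot be told apart.

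**Figure D1:**
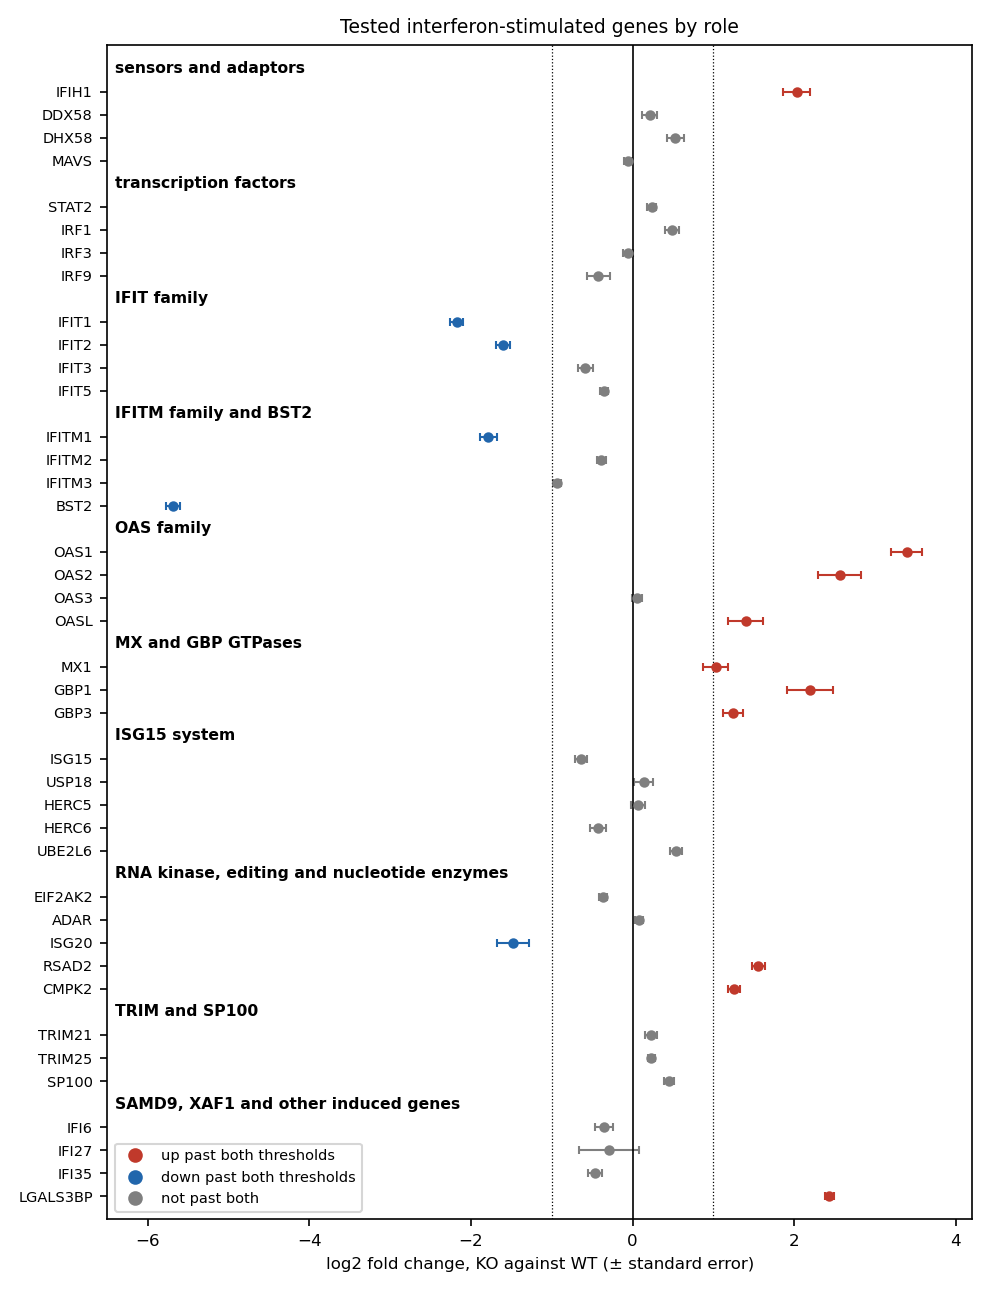
Log2 fold change of KO against WT cells for the 40 tested interferon-stimulated genes, grouped by role, with bars for ± 1 standard error and dotted lines at -1 and 1. The IFIT genes, the IFITM genes and BST2 lie left of 0, and OAS1, OAS2, OASL, MX1, GBP1 and GBP3 lie right of 1.

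The plot of log2 fold changes by role sets the families side by side. All 4 IFIT genes and all 4 genes of the group of IFITM genes and BST2 were lower in KO cells at the adjusted p, while 3 of 4 OAS genes and all 3 tested MX and GBP genes were up-regulated. Of the 15 genes past both thresholds, each had groups that did not overlap, and the highest adjusted p among them was 1.31e-06. Passing both thresholds itself favours separate groups, so the separation adds no further support. For every gene with such separate groups the exact permutation test of 3 libraries against 3 gives p = 0.1, the smallest it allows. OAS2 and GBP1 passed the filter on low counts only through the KO libraries, which favours a rise in KO cells. Over the 37 tested genes that passed it in both groups on their own, 8 were up-regulated and 5 down-regulated, against 4.78% and 5.27% of the 14128 genes of the whole table that passed in the same way.

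BST2 had the largest decrease of the panel. This membrane protein (tetherin, ENSG00000130303, chr19:17402939-17405630 on GRCh38), which holds budding virus particles at the cell surface and whose ISRE pair is printed above, had 134, 118 and 125 CPM in the WT libraries and 2.12, 2.86 and 2.25 CPM in the KO libraries. The WT libraries agreed closely and every KO library was far below them. The decrease was 51.5-fold, a log2 fold change of -5.69 (SE 0.0886, edgeR's quasi-likelihood test, adjusted p = 3.75e-32). Its counts fell from at least 1392 in each WT library to at most 77 in each KO library, so the low level in KO cells was still counted above the floor.

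The IFITM proteins sit in membranes and block the entry of enveloped viruses. IFITM1 (chr11:310041-315272) had 65.7, 49.9 and 40.9 CPM in WT and 14.2, 16.6 and 15.5 CPM in KO libraries. WT replicate 1 was the highest, and the lowest WT library was still above all KO libraries. Its log2 fold change was -1.79 (SE 0.102, adjusted p = 2.19e-16, edgeR's quasi-likelihood test). IFITM3 (chr11:319676-329475) had 311, 299 and 295 CPM in WT and 149, 169 and 156 CPM in KO libraries, with no overlap, and its log2 fold change of -0.93 (SE 0.0499, adjusted p = 3.6e-17, same test) stayed short of the fold threshold. For IFITM2 the libraries had 111, 100 and 94.3 CPM in WT and 75.4, 81.4 and 77.7 CPM in KO cells. Its decrease was the smallest of the 3 genes, -0.39 on the log2 scale (SE 0.0556, adjusted p = 3.47e-07, same test). The 3 IFITM genes are close paralogs, and how reads that match more than one of them were counted is not given in the sources used here, so their separate values are uncertain.

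IFIT proteins bind viral RNA and hold back its translation, and their genes lie side by side on chromosome 10. IFIT1 (chr10:89392546-89406487) had 56.0, 44.1 and 45.8 CPM in WT and 10.5, 10.7 and 11.2 CPM in KO libraries. WT replicate 1 was the highest and all KO libraries were below the WT libraries, a 4.52-fold decrease (log2 fold change -2.18, SE 0.0831, adjusted p = 3.53e-21, edgeR's quasi-likelihood test). IFIT2 (chr10:89283694-89309271) had 23.9, 21.4 and 20.8 CPM in WT against 7.0, 6.87 and 8.26 CPM in KO libraries, again without overlap, and fell 3.04-fold (log2 fold change -1.60, SE 0.0904, adjusted p = 1.49e-16, same test). IFIT3 (chr10:89327307-89377473) moved less, from 14.2, 13.1 and 12.2 CPM to 8.91, 9.10 and 8.48 CPM, with a log2 fold change of -0.59 (SE 0.0915, adjusted p = 1.4e-06, same test). IFIT5 was the least changed and the most abundant in KO cells, at 60.9 ± 1.80 CPM in WT and 47.6 ± 1.39 CPM in KO cells (SD, n = 3), a log2 fold change of -0.35 (adjusted p = 1.2e-06, same test). The 4 family members thus fell by unequal amounts. A gene without a symbol, ENSG00000232110, overlaps IFIT2 on the same strand, with 2019 counts in all against 2031 for IFIT2, and it fell from 29.1 ± 3.85 to 0.340 ± 0.0508 CPM. How reads in the shared stretch were assigned is not given, so the IFIT2 value is uncertain. LIPA, with 18313 counts in all, overlaps IFIT1, IFIT2 and IFIT3 on the opposite strand. The strand setting of the counting is not given either, so the values of IFIT1 and IFIT3 are uncertain as well.

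Enzymes of the OAS family, which make the messenger 2-5A when they meet double-stranded RNA, moved in the opposite direction. OAS1 (chr12:112905856-112933219) had 0.547, 0.534 and 0.900 CPM in WT and 6.8, 6.09 and 6.18 CPM in KO libraries. Counts were 15, 16 and 10 in WT and 167, 164 and 110 in KO libraries, so the WT level was low but above the floor. The 10.5-fold increase was the largest rise of the panel (log2 fold change 3.39, SE 0.191, adjusted p = 1.5e-16, edgeR's quasi-likelihood test). OAS2 (chr12:112978395-113011723) went from 0.766, 0.267 and 0.540 CPM in WT to 2.73, 2.75 and 3.88 CPM in KO libraries, with every KO library above every WT library (log2 fold change 2.56, SE 0.264, adjusted p = 4.3e-10, same test). OASL (chr12:121017763-121039246), which lacks the synthetase activity and acts on the sensor RIG-I, had 0.876, 0.901 and 1.17 CPM in WT and 2.89, 2.53 and 1.91 CPM in KO libraries. The KO libraries were more spread than the WT libraries but did not reach them, with a log2 fold change of 1.40 (SE 0.218, adjusted p = 1.31e-06, same test). OAS3 lies between OAS1 and OAS2 in the genome and was the most abundant of the 4 genes, at 56.2 ± 5.30 CPM in WT and 58.2 ± 1.67 CPM in KO cells (SD, n = 3). Its groups overlapped and it did not pass the test (log2 fold change 0.06, SE 0.0606, adjusted p = 0.432, same test).

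The large GTPases MX1 and the GBP proteins, which act against viruses and intracellular microbes, also rose. MX1 (chr21:41420020-41470071) had 2.19, 2.37 and 3.33 CPM in WT and 4.60, 5.31 and 5.28 CPM in KO libraries. WT replicate 3, the library with the fewest reads, was the highest of its group and below all KO libraries. The log2 fold change of 1.03 (SE 0.153, adjusted p = 6.34e-07, edgeR's quasi-likelihood test) lay just past the threshold, and without WT replicate 1, WT replicate 2 or KO replicate 2 it was 0.92, 0.98 and 0.99. GBP1 (chr1:89051882-89065360) had 0.365, 0.30 and 0.360 CPM in WT and 1.55, 1.60 and 1.52 CPM in KO libraries, a log2 fold change of 2.19 (SE 0.286, adjusted p = 5.73e-08, same test). Both groups were tight and far apart, although WT libraries held only 10, 9 and 4 reads. GBP3 (chr1:89006679-89022894) rose from 4.12, 3.60 and 3.06 CPM to 8.67, 8.32 and 9.50 CPM, a log2 fold change of 1.24 (SE 0.122, adjusted p = 1.56e-10, same test). MX2 and GBP2 had at most 3 counts in any library and were not tested.

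Among the cytosolic sensors of RNA, IFIH1 (MDA5, chr2:162267074-162318684), which recognizes long double-stranded RNA, had 1.2, 1.23 and 1.44 CPM in WT and 5.01, 4.90 and 5.73 CPM in KO libraries. The 4.09-fold difference was clear of the spread in both groups (log2 fold change 2.03, SE 0.167, adjusted p = 2.3e-12, edgeR's quasi-likelihood test). The other RNA helicases moved less. DHX58 (LGP2), a helper of MDA5, was higher at 9.38 ± 0.622 against 6.53 ± 0.675 CPM in WT (log2 fold change 0.53, adjusted p = 8.5e-05, same test), and DDX58 (RIG-I), the sensor of RNA ends, was at 11.9 ± 0.836 against 10.3 ± 0.358 CPM (log2 fold change 0.21, adjusted p = 0.0451, same test). MAVS, the mitochondrial adaptor of both sensors, was at 122 ± 5.32 CPM in WT and 118 ± 3.15 CPM in KO, and did not pass the test (adjusted p = 0.345, same test). The sensors of DNA in the panel had few counts. CGAS, which senses cytosolic DNA, had 4, 7 and 2 counts in WT and 4, 6 and 2 in KO libraries, and its adaptor STING1 had 6, 6 and 3 against 3, 1 and 0. IFI16, another DNA sensor, had 10, 6 and 2 counts in WT and 0, 2 and 0 in KO libraries, too few for the test.

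The transcription factors that drive these genes changed little. STAT2, a partner in ISGF3, was 51.9 ± 3.37 CPM in WT and 60.9 ± 3.28 CPM in KO (log2 fold change 0.23, adjusted p = 8.41e-04, edgeR's quasi-likelihood test). IRF9, its DNA-binding partner, was lower, with 4.03 ± 0.141 against 3.05 ± 0.347 CPM (log2 fold change -0.42, adjusted p = 0.012, same test), and IRF1, an activator downstream of type II interferon, was higher, with 11.5 ± 1.07 against 15.7 ± 1.26 CPM (log2 fold change 0.48, adjusted p = 1.81e-05, same test). The groups of each of these 3 genes did not overlap. IRF3, which turns on the interferon beta gene, was at 121 ± 10.3 and 115 ± 6.75 CPM with overlapping groups (adjusted p = 0.385, same test). IRF7, which amplifies interferon alpha production, was counted once, in KO replicate 1.

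ISG15 is a ubiquitin-like protein that is attached to other proteins during the response. It had 37.1, 30.3 and 34.1 CPM in WT and 19.5, 23.9 and 21.5 CPM in KO libraries. All KO libraries were below all WT libraries, with a log2 fold change of -0.64 (SE 0.0779, adjusted p = 1.49e-08, edgeR's quasi-likelihood test). The enzymes that handle ISG15 did not share one direction. Its conjugating enzyme UBE2L6 was higher (20.8 ± 1.76 in WT, 30.1 ± 1.30 CPM in KO, log2 fold change 0.54, adjusted p = 9.31e-08, same test), the related HECT-domain gene HERC6 was lower (11.0 ± 0.342 and 8.10 ± 0.570 CPM, log2 fold change -0.43, adjusted p = 2.47e-04, same test), and the ligase HERC5 did not pass the test (12.5 ± 0.518 and 13.0 ± 1.14 CPM, adjusted p = 0.523, same test). USP18, which removes ISG15 and restrains the receptor, had 4.96 to 5.31 CPM in WT and 5.35 to 6.06 CPM in KO libraries. These groups did not overlap, but the test did not call USP18 (log2 fold change 0.14, adjusted p = 0.329, same test).

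Of the RNA and nucleotide enzymes, RSAD2 (viperin, chr2:6865557-6898239), which makes a chain-terminating nucleotide, and CMPK2 (chr2:6840570-6866635), a nucleotide kinase that supplies it, rose together. RSAD2 had 8.50, 8.11 and 9.36 CPM in WT and 25.6, 24.1 and 25.3 CPM in KO libraries, and CMPK2 had 11.9, 11.0 and 11.2 CPM in WT and 29.3, 25.9 and 26.2 CPM in KO libraries. Replicates were close for both genes and the groups were far apart. The log2 fold change was 1.55 for RSAD2 (SE 0.0820, adjusted p = 2.43e-17, edgeR's quasi-likelihood test) and 1.25 for CMPK2 (SE 0.0785, adjusted p = 2.35e-15, same test). These genes overlap on opposite strands; the library kit keeps the strand, but the strand setting of the counting is not given in the sources used here, so part of the reads of one could have been given to the other. ISG20 (chr15:88635670-88656483), an exonuclease, went the other way, from 3.03, 2.80 and 2.52 CPM in WT to 1.02, 0.929 and 1.12 CPM in KO libraries. All KO libraries were below the WT libraries (log2 fold change -1.48, SE 0.198, adjusted p = 8.4e-08, same test).

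EIF2AK2 (PKR), the RNA-activated kinase that stops translation, was lower in KO cells, at 241 ± 10.9 in WT and 187 ± 11.6 CPM in KO (log2 fold change -0.36, adjusted p = 2.14e-07, edgeR's quasi-likelihood test). ADAR, which edits adenosine in double-stranded RNA and keeps it from being sensed, was the panel gene with the most counts. It had 722, 829 and 757 CPM in WT and 811, 795 and 833 CPM in KO libraries. These groups overlapped, and the test gave a log2 fold change of 0.08 (SE 0.0506, adjusted p = 0.173, same test). The ubiquitin ligases TRIM21 and TRIM25 and the nuclear body protein SP100 were each higher in all KO libraries, with log2 fold changes of 0.23, 0.23 and 0.45 and adjusted p of 0.00972, 9.06e-05 and 3.76e-07 (same test).

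LGALS3BP (galectin-3-binding protein, chr17:78971238-78979947), a secreted glycoprotein, had the largest gain in CPM. It had 82.6, 79.4 and 78.6 CPM in WT and 404, 457 and 443 CPM in KO libraries. The WT libraries lay within a narrow range and all KO libraries were far above it, a 5.41-fold increase (log2 fold change 2.44, SE 0.0533, adjusted p = 5.73e-28, edgeR's quasi-likelihood test). Of the remaining tested genes, IFI35, an adaptor protein, was lower (14.6 ± 1.37 in WT and 10.7 ± 0.252 CPM in KO, log2 fold change -0.47, adjusted p = 2.65e-05, same test). IFI6, which protects cells from death and flaviviruses, was lower at the adjusted p with a log2 fold change of -0.36 (adjusted p = 0.00541, same test), but WT replicate 2, at 10.1 CPM, fell within the KO range of 9.48 to 10.5 CPM. IFI27 was near the floor, at 0.540 ± 0.179 and 0.405 ± 0.110 CPM, and did not pass the test (adjusted p = 0.507, same test).

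**Figure D2:**
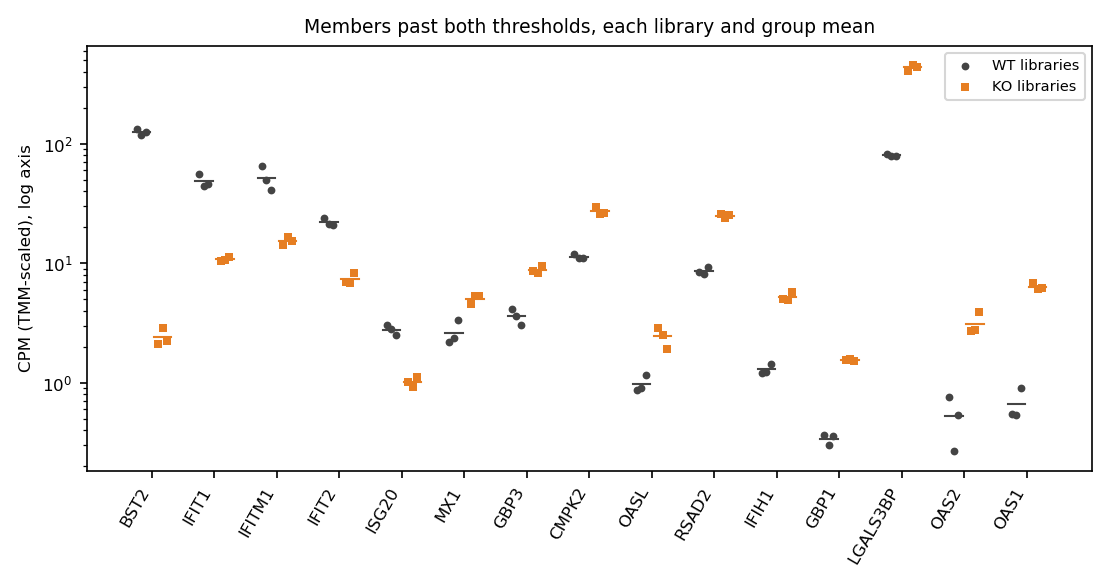
Level of the 15 interferon-stimulated genes past both thresholds in each library, in CPM on a log axis, with circles for WT, squares for KO libraries and a line at each group mean. BST2 drops from 126 to 2.41 CPM and LGALS3BP rises from 80.2 to 435 CPM, and no gene has overlapping groups.

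The plot of levels by library shows that most of the up-regulated genes were low in WT cells. LGALS3BP and CMPK2 were the only up-regulated genes above 10 CPM there, whereas all down-regulated genes but ISG20 were above 20 CPM. Levels were also compared per exon length (RPKM), the CPM of a gene divided by the kilobases of its exons, merged over all annotated transcripts. This length can exceed that of the transcript expressed, so the order depends in part on the annotation. The 5 panel genes with the highest mean RPKM over both groups were IFITM3 (80.8), LGALS3BP (75.2), ADAR (64.6), BST2 (58.2) and IFITM2 (56.0 RPKM). The order differed between the groups. BST2 ranked 1 in WT cells at 114 ± 7.23 RPKM, just above IFITM3 at 106 ± 2.79 RPKM, and ranked 24 in KO cells at 2.19 ± 0.361 RPKM. The merged lengths were 1101 bases for BST2 and 2844 for IFITM3, and in CPM IFITM3 was the higher in WT cells (302 against 126). LGALS3BP ranked 8 in WT cells at 23.4 ± 0.615 RPKM and 1 in KO cells at 127 ± 7.99 RPKM. In KO cells ADAR followed at 66.4 ± 1.53 RPKM and IFITM3 at 55.6 ± 3.45 RPKM.

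The 11 panel genes too low to test had at most 10 counts in any library. Beside CGAS, STING1, IFI16, IRF7, MX2 and GBP2, they were SAMD9, SAMD9L, XAF1, IFI44 and IFI44L. SAMD9, a restriction factor of poxviruses, had 0, 1 and 0 counts in WT and 6, 6 and 10 in KO libraries, and its neighbour SAMD9L had 0, 1 and 0 against 3, 7 and 1. Every KO library held more SAMD9 reads than any WT library, while the SAMD9L counts overlapped. IFI44 and IFI44L, genes that respond strongly to type I interferon in many cell types, had at most 2 counts, and XAF1, a pro-apoptotic protein, had 3 to 9 counts with overlapping groups. All 11 were left out of the main test. When no filter beyond 1 count was applied, SAMD9 and SAMD9L passed both thresholds upward and IFI16 downward (adjusted p = 7.29e-05, 0.0259 and 0.00256, edgeR's quasi-likelihood test), and the other 8 did not.

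The other genes of the pathway were taken from 6 lists by role, 115 genes in all, of which 74 were tested. No interferon gene was tested: each of the 21 ligands had at most 1 count in any library, and IFNB1, the interferon beta gene, had 0 in all 6. A count of 0 allows up to 0.270 CPM in the shallowest library. The 6 receptor genes were all expressed. IFNAR1, a subunit of the type I receptor, was higher in KO cells (66.4 ± 4.80 in WT and 91.3 ± 2.74 CPM in KO, log2 fold change 0.46, adjusted p = 1.09e-08, edgeR's quasi-likelihood test), as was IFNGR2 of the type II receptor (58.4 ± 1.85 and 82.5 ± 1.19 CPM, log2 fold change 0.50, adjusted p = 5.92e-10, same test). The other 4 receptor genes did not pass the test.

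Of the kinases and STAT genes, STAT3 was higher (74.8 ± 1.55 in WT and 113 ± 2.50 CPM in KO, log2 fold change 0.59, adjusted p = 3.78e-12, edgeR's quasi-likelihood test). JAK1, JAK2 and TYK2 did not pass the test. Among the negative regulators, SOCS3, a feedback inhibitor of JAK kinases, had 31.2, 30.2 and 33.1 CPM in WT and 0.977, 0.929 and 0.337 CPM in KO libraries. Its counts fell from at least 368 in each WT library to 24, 25 and 6 in KO libraries, and the log2 fold change was -5.30 (SE 0.138, adjusted p = 8.16e-26, same test). SOCS3 passed the filter on low counts only through the WT libraries, which favours a decrease in KO cells. CISH, of the same family, was halved in level, from 16.1 ± 1.95 to 8.09 ± 0.761 CPM, with a log2 fold change just past the threshold of -1 (SE 0.0975, adjusted p = 1.18e-10, same test). Another 5 of the 9 tested regulators were lower and 1 was higher at the adjusted p.

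The plot of the pathway by role sets the panel beside these lists. Against 8.3% of all tested genes, 3 of the 14 tested genes for nucleic acid sensing were up-regulated. They were TLR3, the endosomal sensor of double-stranded RNA (6.74 ± 0.436 in WT and 21.5 ± 2.65 CPM in KO, log2 fold change 1.64), MYD88, the adaptor of most other Toll-like receptors (1.16 ± 0.214 and 3.62 ± 0.112 CPM, log2 fold change 1.58), and NLRC5, a regulator of MHC class I genes (3.28 ± 0.303 and 9.53 ± 0.759 CPM, log2 fold change 1.52). Their adjusted p were 5.76e-16, 4.51e-09 and 1.05e-12 from edgeR's quasi-likelihood test. None of the 14 was down-regulated past both thresholds. At the adjusted p alone 6 were higher and 5 lower, against 31.9% and 32% of all tested genes.

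A list of 51 further interferon-stimulated genes outside the panel had 8 of 40 tested genes up-regulated and 3 down-regulated, against the 8.3% and 7.73% of all tested genes given above. APOL1, APOL6 and APOBEC3G passed the filter on low counts only through the KO libraries, and all 3 that fell only through the WT libraries. This favours a difference in these directions. PARP10, an ADP-ribosyltransferase, rose from 5.13 ± 0.519 to 44.7 ± 2.25 CPM (log2 fold change 3.16, adjusted p = 1.35e-25, edgeR's quasi-likelihood test). UBA7, the enzyme that activates ISG15, rose from 1.81 ± 0.475 to 14.9 ± 2.36 CPM (log2 fold change 3.14, adjusted p = 1.17e-18, same test), while ISG15 itself was lower. APOL1, a lytic factor against trypanosomes, had 2, 4 and 1 counts in WT and 63, 85 and 51 in KO libraries. APOBEC3G, APOL6, NMI, TRIM38 and SP140L rose as well, with log2 fold changes of 1.79, 1.24, 1.23, 1.10 and 1.05 and an adjusted p of at most 6.1e-04 (APOL6, same test). CXCL11, an interferon-induced chemokine, had 8.32, 9.48 and 8.10 CPM in WT and only 3, 2 and 2 counts in KO libraries (adjusted p = 8.15e-21, same test). CH25H, which makes an antiviral oxysterol, had 19, 27 and 5 counts in WT and 0 in all KO libraries, which is at least 4.04-fold lower when set against the highest KO floor of 3 counts per library (adjusted p = 2.26e-08, same test). IFI30, a lysosomal thiol reductase, fell from 0.595 ± 0.160 to 0.176 ± 0.0822 CPM (log2 fold change -1.82, adjusted p = 4.28e-04, same test). Over the 74 tested pathway genes, 11 rose and 5 fell past both thresholds, and 29 and 22 passed the adjusted p in each direction. Among all tested genes these shares were 8.3%, 7.73%, 31.9% and 32%. In the 66 pathway genes that passed the filter in both groups, 8 rose and 1 (CISH) fell past both thresholds. Among all genes that passed in the same way these shares were 4.78% and 5.27%.

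Since several panel genes lie in clusters, the tested genes within 500 kb of each cluster were also examined. The IFIT genes (chr10:89283694-89421605) fell. Of their 13 tested neighbours, 7 were up-regulated and 2 down-regulated, against 8.3% and 7.73% of all tested genes. Only FAS and STAMBPL1 among these 9 passed the filter on low counts in both groups, and the other 7 passed it through one group alone. FAS, the death receptor, rose from 11.5 ± 0.420 to 220 ± 6.08 CPM (log2 fold change 4.24, adjusted p = 5.05e-33, edgeR's quasi-likelihood test). STAMBPL1, a deubiquitinase of the same block, rose from 18.3 ± 0.693 to 103 ± 1.40 CPM (log2 fold change 2.48, adjusted p = 5.13e-27, same test), and ACTA2-AS1, a transcript antisense to ACTA2, rose from 0.316 ± 0.24 to 8.78 ± 0.873 CPM (log2 fold change 4.51, adjusted p = 1.99e-18, same test). ANKRD22 had at most 2 counts in any WT library and 245 ± 9.39 CPM in KO cells, and the pseudogene PTCD2P2 had 0 counts in WT and was at least 3.12-fold higher in KO cells. The 2 genes without a symbol that rose on the other side of the cluster, ENSG00000235100 and ENSG00000240996, had log2 fold changes of 1.26 and 1.43 (adjusted p = 0.00829 and 0.00481, same test) and at most 15 counts in any library. The 2 that fell were CH25H and ENSG00000232110, described above. LIPA, the lysosomal lipase, overlaps IFIT1, IFIT2 and IFIT3 on the opposite strand, with 18313 counts in all, and fell by 0.71 on the log2 scale (adjusted p = 8.55e-14, same test).

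**Figure D3:**
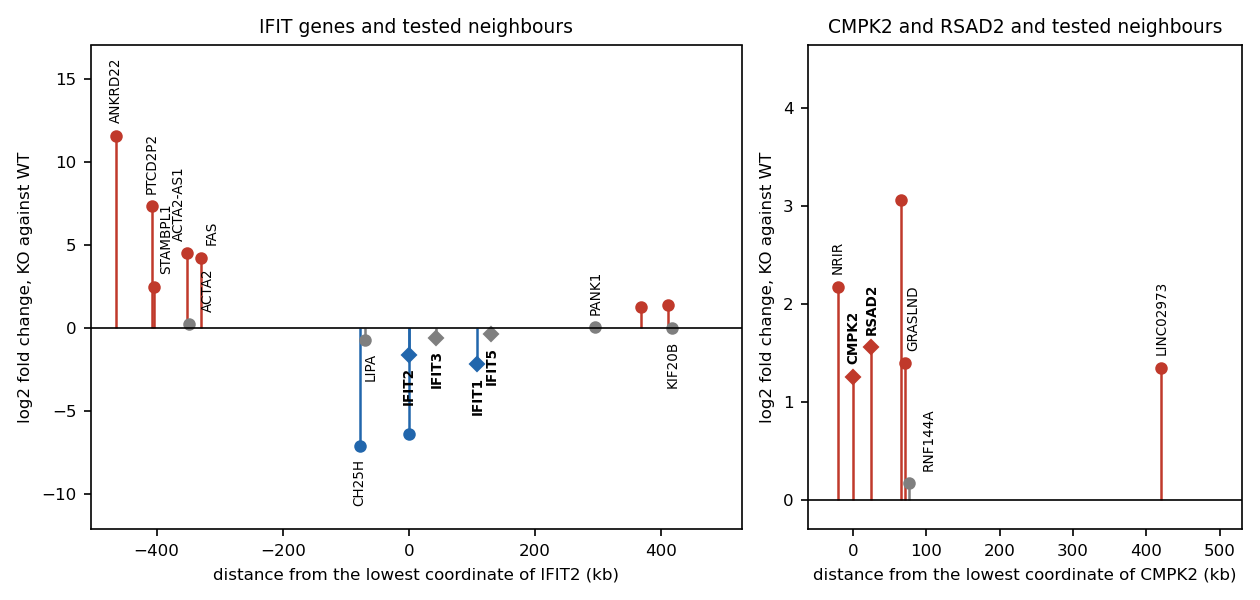
Log2 fold change of KO against WT cells for the tested genes within 500 kb of the IFIT genes (left) and of CMPK2 and RSAD2 (right), plotted at their distance in kb from the lowest coordinate of IFIT2 or CMPK2, with diamonds and bold names for panel genes, circles for neighbours and gray for genes that did not pass both thresholds. ANKRD22, FAS and other genes to the left of IFIT2 rose while the IFIT genes fell, and the 4 red neighbours of CMPK2 and RSAD2 rose with them; unnamed circles have no symbol, and the heights for ANKRD22, PTCD2P2 and CH25H are fitted values for genes at or near 0 counts in one group.

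The plot of both loci shows a mixed block on chromosome 10 and a block on chromosome 2 that moved one way. Of the 5 tested neighbours of CMPK2 and RSAD2 (chr2:6840570-6898239), 4 were up-regulated and all 5 were higher at the adjusted p. Among all tested genes these shares were 8.3% and 31.9%. GRASLND, a long noncoding RNA, rose from 2.35 ± 0.0183 to 6.19 ± 0.578 CPM (log2 fold change 1.39, adjusted p = 3.57e-10, edgeR's quasi-likelihood test). NRIR, a long noncoding RNA next to CMPK2, rose from 0.199 ± 0.0302 to 0.954 ± 0.127 CPM (log2 fold change 2.17, adjusted p = 4.11e-06, same test). LINC02973, with a log2 fold change of 1.35 (adjusted p = 0.00627, same test), and ENSG00000271947, with at most 2 counts in each WT library and at most 20 in each KO library, were the other 2. Of these 4, GRASLND was the only one to pass the filter on low counts in both groups.

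The remaining clusters are given by their called neighbours, of which ANO9, RASAL1, ABCG2 and CDK6 passed the filter on low counts through one group alone. For comparison, 8.3% of all tested genes rose and 7.73% fell past both thresholds. Around the IFITM genes and IRF7, 2 of 44 tested neighbours rose (PNPLA2, the triglyceride lipase, at 1.12, and ENSG00000250397 at 1.55 on the log2 scale) and 2 fell (MIR210HG at -1.55 and ANO9, with at most 3 counts in each KO library). Near OAS1, OAS2 and OAS3, RASAL1 rose by 2.80 on the log2 scale and was the only one of 11 neighbours past both thresholds. Beside HERC5 and HERC6, NAP1L5 rose by 1.35 on the log2 scale, and ABCG2, a drug efflux transporter, had at most 30 counts in WT and at most 2 in KO libraries. LRRC8C, near the GBP genes, fell by 1.13 on the log2 scale, as the GBP genes rose. CDK6, near SAMD9 and SAMD9L, had at most 34 counts in WT and at most 3 in KO libraries. No neighbour of MX1 and MX2 passed both thresholds among 4 tested, and IFI44 and IFI44L had no tested neighbour. For BST2, which lies apart from other panel genes, none of 26 tested neighbours rose and 3 fell past both thresholds. At the adjusted p alone, 6 of these neighbours were higher and 14 lower, while 31.9% and 32% of all tested genes were.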

How the data were processed

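RNA-seq of A2780 WT and A2780 CDK12 KO cells (3 libraries each, grouped by the labelled genotype) was used. Raw counts were deposited by the authors for 60483 Ensembl genes, with no normalization. The labels and the paper's methods name FastQC, STAR with GRCh38 and HTSeq, while versions, annotation release and strand setting are not given in the sources used here. Identifiers were matched to GENCODE release 44 (56321 genes, 93.1%), which also gave positions and exon lengths. Promoters were read from RefSeq (GRCh38.p14). There were 0 columns left unused.

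KO was compared with WT in edgeR 4.0.16 under R 4.3.3 (filterByExpr with a minimum count of 10 and a minimum total of 15, TMM, quasi-likelihood test, two-sided, Benjamini-Hochberg over 16198 genes). Totals ranged from 11098400 to 30899045 counts. Thresholds were those of the study. CPM and RPKM used TMM-scaled totals, and errors are SD over 3 libraries unless given as SE. Single values were compared by exact permutation tests. A fold against a group at 0 counts was set against the highest floor of 3 counts per library in that group.

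Per-library values were given for panel genes past both thresholds, for the 5 with the highest level per exon length and for those with an adjusted p under 0.05 whose log2 fold change was between 0.58 and 1 in size. Pathway genes and neighbours within 500 kb were named when past both thresholds, and BST2's neighbours were added after values were seen. Panel and lists were chosen with earlier results of these data known, so no list was tested. Alternatives were voom/limma (limma 3.58.1), DESeq2 1.42.0, other normalizations and filters, an adjusted p under 0.01 and leaving out each library. Values of 2 pathway genes are not reported here.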

Additional observations from a re-analysis of the deposited data

How the results depend on the processing

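For the 34 genes followed through the settings (panel genes past both thresholds or between 0.58 and 1 in size, and pathway genes past both), the direction held wherever it was tested, as did the count of down-regulated panel genes, under voom/limma, DESeq2, median-of-ratios and upper-quartile normalization, both other filters, an adjusted p under 0.01 and the omission of each library, with 5 panel genes down-regulated in each except 6 without a filter beyond 1 count. Up-regulated panel genes numbered 8 to 12 under the other settings and 9 to 10 with a library left out. Of these 34 genes, 2 changed side of the fold threshold: MX1, as given above, and CISH, just short of -1 with DESeq2, -0.97 with upper-quartile normalization, -0.98 with at least 10 counts in every library, and between -0.89 and -1.08 with 1 library left out (-0.89 without WT replicate 2, -0.98 without KO replicate 1 and -0.95 without KO replicate 3). The panel's median log2 fold change was 0.14 without a filter, where all 51 genes entered, and 0.0536 to 0.120 with 1 library left out, highest without WT replicate 2. With at least 10 counts in every library, 0 pathway genes were down-regulated past both thresholds, since SOCS3, CXCL11, IFI30 and CH25H are removed by that filter and CISH was short of the fold threshold. Scaling moved the median of all genes by at most 0.0284 (log2). No paired analysis was possible because the labels pair no WT library with a KO library. Depth limits the 11 untested genes and the interferon genes.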
